A study of Homo sapiens with 10 samples.

Results

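The genes described here are 35 protein-coding genes, chosen by name under the heading of p53 targets and DNA damage response. Whether p53 acts directly on each of them was not tested. All 35 were found by symbol among the 19975 protein-coding rows of both deposited tables. NB4 is an established human line of acute promyelocytic leukemia cells. In the knockdown experiment, NB4 cells were transduced with the empty lentiviral vector pLKO.1 puro (EV) or with the same vector carrying 1 of 2 short hairpin RNAs against GSE1, shA1 or shB2, and were harvested after 48 h. In the inhibitor experiment, NB4 cells received DMSO or 2 µM of the LSD1 inhibitor MC2580 for 24 h. The labels give 2 replicates for each of the 5 groups, so that the knockdown experiment has 6 libraries and the inhibitor experiment 4. All libraries come from 1 cell line, and the cells of the inhibitor experiment were not transduced.

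The values used are base means, that is, the authors' averages of size-factor-normalized counts over all libraries of an experiment. In the knockdown experiment the header of this value names shB2 alone, and it was read as the average over EV, shA1 and shB2. That reading was not checked against values per library. On this reading EV, shA1 and shB2 share 1 value per gene, and so do DMSO and MC2580. No value per library was used, so the effect of a hairpin or of MC2580 on these genes was not analysed here, no spread between replicates can be given, and no test was run. The comparison columns of the tables, which hold the study's own fold changes and p-values, were not used. The data thus show how strongly each gene was represented in NB4 RNA in each experiment and how far both averages lie apart, without showing which group carried a difference.

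The p53 protein is a transcription factor that is stabilised after DNA damage and other stresses. The kinases ATM and ATR sense broken or stalled DNA and signal through CHEK2 and CHEK1, and p53 then drives genes for cell cycle arrest, DNA repair, redox control and apoptosis. MDM2 and MDM4 hold p53 in check, and because MDM2 is itself a p53 target, the pathway contains its own brake. In myeloid cells some of these genes, BTG1, BTG2 and the GADD45 genes among them, also respond to differentiation and stress signals other than p53.

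Of the 35 genes, 29 reached a base mean of 10 in both experiments (82.9%), against 61.8% of all protein-coding rows. A base mean of 100 was reached in both by 26 (74.3%), against 51.3% of all protein-coding rows. The 6 genes below 10 in 1 or both experiments were GADD45G, TP53I3, PHLDA3, SPATA18, EDA2R and GDF15. Base means ranged from 0.116 for EDA2R to 4305 for BTG1 in the knockdown experiment. In the inhibitor experiment they ranged from 0.193 for SPATA18 to 3315, again for BTG1. Longer transcripts give more reads, so levels were compared between genes only after division by the length of the canonical transcript in kilobases. The level per kb of each gene was then ranked among the 12335 protein-coding genes that had a length and passed the same limit of 10 in both experiments. On this scale the median of the 35 genes stood at the 34.0 percentile in the knockdown experiment and at the 34.7 percentile in the inhibitor experiment. In the knockdown experiment 13 of the 35 genes lay above the midpoint of this ranking and 9 under its 10% mark. In the inhibitor experiment these numbers were 12 and 9. The ranked genes all passed the limit of 10, and the 6 genes that did not pass it fall low in the ranking by construction. Among the 29 that passed, the medians were 42.8 and 43.4, with 13 and 12 genes above the midpoint and 3 under the 10% mark in each experiment. With the canonical transcript length, APAF1 alone lay above the midpoint in 1 experiment and below it in the other. With union exon length this was DDB2 in place of APAF1, and with coding length it was 5 genes, MDM4, XPC, DDB2, APAF1 and PIDD1.

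**Figure D1:**
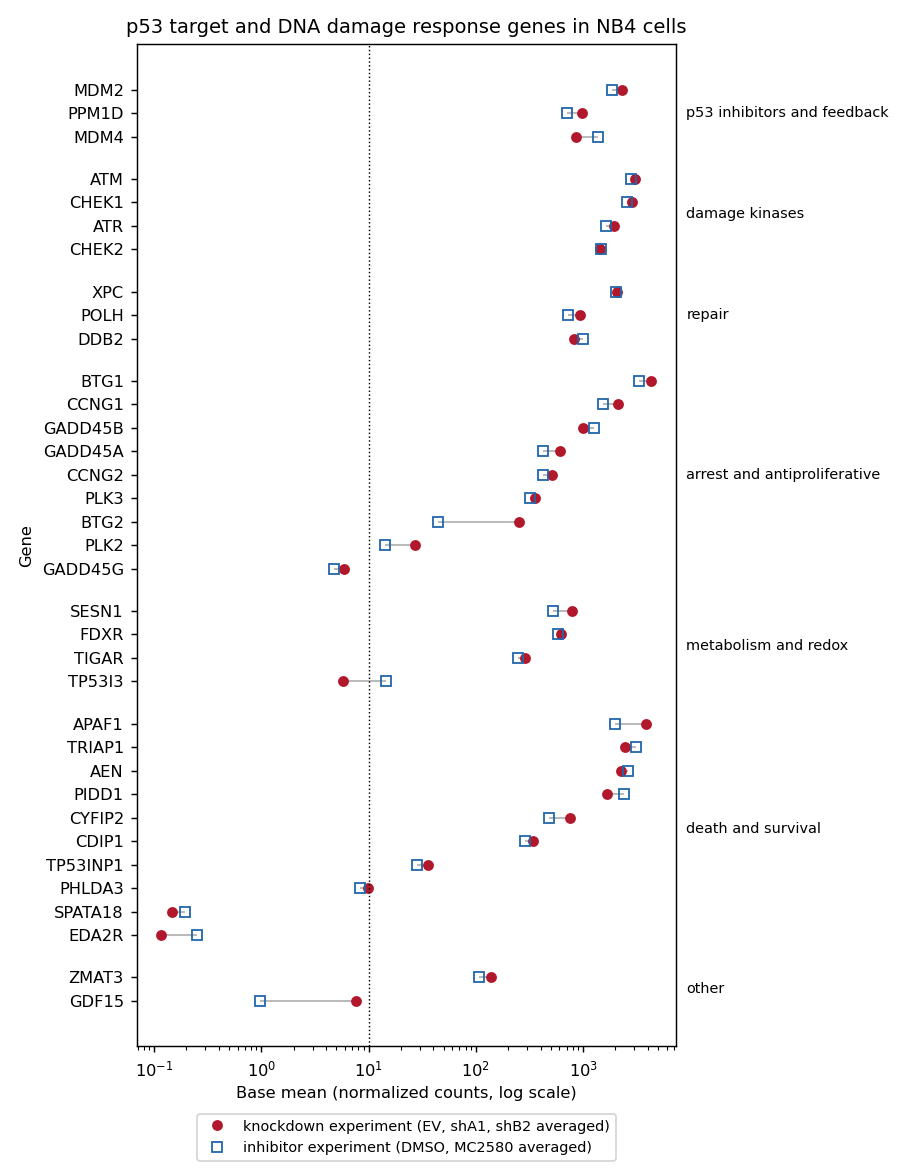
Base mean of each of the 35 genes (x axis, normalized counts on a log scale), grouped by role. Filled circles show the knockdown experiment, read as the average of 6 libraries. Open squares show the inhibitor experiment, the average of 4 libraries. The dotted line marks a base mean of 10; 29 genes lie to its right in both experiments, and BTG2 and GDF15 show wide gaps between the symbols.

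The libraries were checked against cell type markers and the targeted gene. Of 6 promyelocyte markers, 5 had base means over 10 in both experiments, with MPO, which encodes myeloperoxidase, at 506765 and 824818, while ELANE, which encodes neutrophil elastase, was near 0 at 1.10 and 3.87. Markers of other cell types were present in part. At least 10 in both experiments were 2 of 3 T cell markers, with CD4 at 6037 and 2961, 2 of 3 B cell markers, with CD79A at 121 and 116, both epithelial markers, 1 of 2 endothelial markers and 1 of 2 fibroblast markers. CD3E (1.55 and 2.98), MS4A1 (0.217 and 0), CDH5 (0.164 and 0.841) and COL1A2 (0.0734 and 0.750) were at or near 0. The erythroid marker HBB had 11.7 and 0. By design all libraries come from the NB4 line. Whether the reads of these markers come from NB4 cells themselves or from other cells was not tested. GSE1 had base means of 2963 in the knockdown experiment and 4441 in the inhibitor experiment. As the former was read as an average over control and hairpin libraries, it is no check of the knockdown. KDM1A, which encodes LSD1, had base means of 7648 and 6285.

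Among the inhibitors of p53, MDM2, the ubiquitin ligase that marks p53 for degradation, had base means of 2303 in the knockdown experiment and 1836 in the inhibitor experiment. MDM4, which binds p53 and blocks its activity, had 862 in the knockdown experiment and 1364 in the inhibitor experiment. Per kb, MDM4 moved from the 25.2 to the 34.6 percentile between the experiments, whereas MDM2 stayed close to the middle of the ranking, at 48.7 and 46.1. PPM1D, the phosphatase that switches off damage signaling, had base means of 974 and 707. All 3 genes of this group lay below the midpoint per kb of canonical transcript in both experiments. MDM2 moved above it with union exon length (57.9 and 54.4) and with coding length (66.5 and 62.7), and MDM4 did so in the inhibitor experiment with coding length (56.6). Of the exon bases of MDM2, 12.3% are also exonic on the opposite strand. A long noncoding RNA gene there covers 10.5% and had base means of 160 and 275. CPM covers 1.78% and had 82.1 and 19.8. Of the 50-base stretches of MDM2, 5.24% occur in 1 processed pseudogene, which had base means of 107 and 94.2. The part of these genes in the MDM2 values was not tested.

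The 4 damage kinases differed little between the experiments. ATM had base means of 3011 and 2796, and ATR, its counterpart for stalled replication forks, had 1918 and 1635. CHEK1, the effector kinase downstream of ATR, had 2843 and 2574. CHEK2, the effector downstream of ATM, had 1445 and 1480. Per kb the effector kinases lay above the sensor kinases. The levels per kb were 689 and 624 for CHEK1 and 784 and 802 for CHEK2, whereas ATM and ATR lay between 200 and 235. Of the possible 50-base reads from the canonical CHEK2 transcript, 9.19% also occur in transcripts of other genes, among them pseudogenes. The shares were 0.692% for ATM and 0% for ATR. Of these pseudogenes, CHEK2P1 and CHEK2P6 had base means of 0 in both experiments, and CHEK2P2 had 0.238 and 0.441. For some of the other sharing genes no base mean was at hand, and their part in the CHEK2 value was not tested. For CHEK1, 18.2% of the exon bases are also exonic on the opposite strand.

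The 3 repair genes were all well represented. XPC, which recognises distorted DNA in nucleotide excision repair, had base means of 2054 and 2016. DDB2, which detects ultraviolet lesions, had 813 and 986. POLH, the polymerase that copies past such lesions, had 930 and 728. Per kb, XPC stood at the 62.9 and 64.0 percentiles, DDB2 at 57.6 and 63.6, and POLH lower, at 29.1 and 27.3. The library kit did not mark strand as far as its name tells, and 30.0% of the exon bases of the canonical XPC transcript are also exonic on the opposite strand, all of them in XPC-AS1. The base means of XPC-AS1 were 22.8 and 40.9, far below those of XPC. For POLH, 3.12% of the exon bases are exonic on the opposite strand in GTPBP2. The base means of GTPBP2 were 4153 and 4401, above those of POLH, and its part in the POLH values was not tested.

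The 9 genes that restrain the cell cycle and growth ranged in base mean from 5.89 to 4305 in the knockdown experiment. BTG1, an antiproliferative protein of the BTG/TOB family, had base means of 4305 and 3315. Its relative BTG2 had 253 in the knockdown experiment and 44.4 in the inhibitor experiment. Per kb, BTG1 stood at the 74.3 and 69.4 percentiles and BTG2 at 26.5 and 10.2. CCNG1, the cyclin G1 gene, which is among the classical p53 targets, had base means of 2130 and 1537, and its relative CCNG2 had 513 and 419. The 3 GADD45 genes encode small stress sensors that bind cell cycle and kinase proteins. GADD45B had base means of 991 and 1253, and GADD45A had 606 and 422. GADD45G had only 5.89 and 4.80. No 50-base stretch of the canonical transcripts of these GADD45 genes, of the cyclin G genes or of BTG2 occurs in transcripts of another gene, so paralogs sharing reads at this length do not enter these values. Of the polo-like kinases, PLK3 had base means of 353 and 320, and PLK2 had 27.1 and 14.1.

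In metabolism and redox control, SESN1, a sestrin that dampens mTORC1 signaling, had base means of 790 and 519. FDXR, the mitochondrial ferredoxin reductase, had 616 and 583. TIGAR, which lowers glycolytic flux, had 287 and 245, though 21.5% of its 50-base stretches are shared with other genes, most of them with 1 overlapping protein-coding gene model whose base means were 298 and 211. TP53I3, a quinone oxidoreductase gene induced by p53, had 5.72 and 14.5. Read as averages over all libraries, these correspond to 34.3 normalized counts summed over 6 libraries and 58.1 summed over 4. Of the exon bases of TP53I3, 4.84% are exonic on the opposite strand in FAM228B, which had base means of 290 and 294. The part of FAM228B reads in the TP53I3 values was not tested.

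Among the 10 genes of cell death and survival, APAF1, the scaffold of the apoptosome, had base means of 3833 in the knockdown experiment and 1966 in the inhibitor experiment. It lay at the 61.5 and 48.5 percentiles per kb. ANKS1B, which overlaps 10.4% of its exon bases on the opposite strand, had base means of only 1.81 and 4.75. TRIAP1, a small survival factor, had 2444 and 3135 and was the highest of all 35 genes per kb, at the 88.2 and 90.3 percentiles. AEN, a nuclease of apoptotic cells, had base means of 2262 and 2624. PIDD1, which scaffolds caspase-2 activation, had 1671 and 2391. CYFIP2, a subunit of the WAVE complex and a p53 target, had 749 and 482, and CDIP1 had 337 and 284. TP53INP1, a stress protein that promotes autophagy and cell death, was low, with base means of 35.4 and 28.3. On the opposite strand, 4.01% of its exon bases are exonic in NDUFAF6, which had base means of 577 and 692. The part of NDUFAF6 reads in the TP53INP1 values was not tested. PHLDA3, an inhibitor of AKT, had 9.95 and 8.39, and 19.1% of its 50-base stretches occur in other genes. A long noncoding RNA gene holds 18.7% of the stretches and had base means of 0 in both experiments. SPATA18 and EDA2R were at the limit of counting. With base means read as averages over all libraries, the summed normalized counts of SPATA18 were 0.872 and 0.771 in the knockdown and inhibitor experiments. Those of EDA2R were 0.696 and 1.01. No difference in either gene can be read at this depth.

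Of the remaining genes, ZMAT3, an RNA-binding regulator of splicing, had base means of 138 and 107. GDF15, a secreted cytokine of the TGF-beta superfamily that is widely used as a readout of p53 and stress signaling, had 7.59 in the knockdown experiment and 0.970 in the inhibitor experiment. Read as averages over all libraries of each experiment, these values amount to 45.6 and 3.88 summed normalized counts, too few for a ratio.

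**Figure D2:**
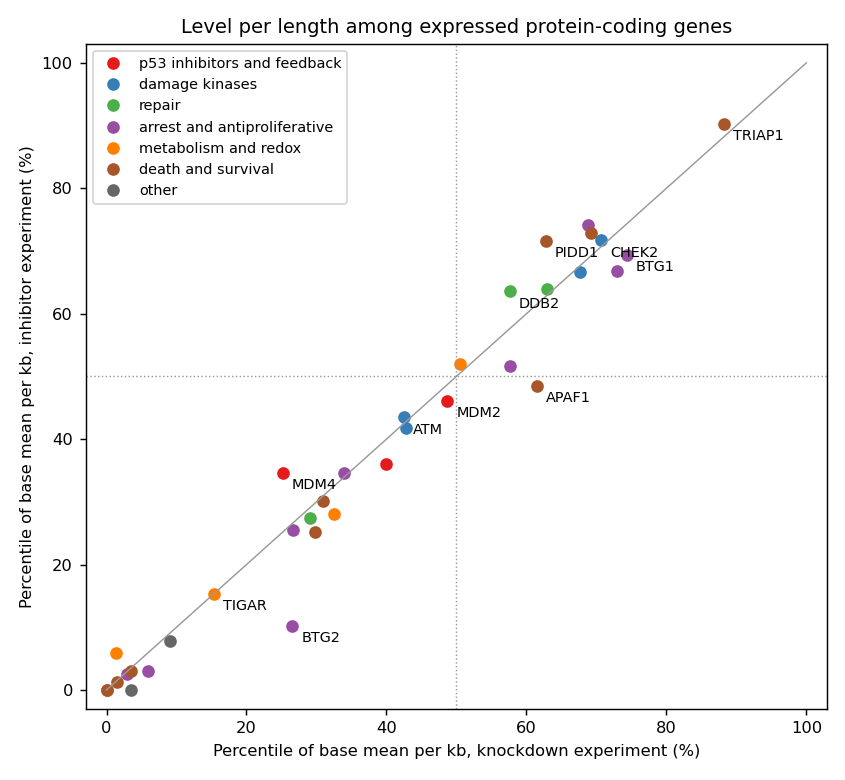
Percentile of the base mean per kb of each of the 35 genes among the 12335 ranked protein-coding genes, in the knockdown experiment (x axis, %) and the inhibitor experiment (y axis, %), coloured by role. Points on the diagonal had the same rank in both experiments; TRIAP1 lies at the top, and BTG2 and APAF1 lie below the diagonal.

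Both experiments were next compared through the log2 ratio of the inhibitor base mean to the knockdown base mean, over the 29 genes that passed the limit of 10. The tables were normalized separately, and the experiments differ in time, transduction and treatment, which cannot be told apart. The median ratio of the 12354 protein-coding genes that passed it was -0.07 on the log2 scale, and it was subtracted from each ratio. Of the 29 genes, 21 were lower in the inhibitor experiment (72.4%) and 8 higher, against 50% lower over all genes, where the subtraction fixes this share. The median scaled log2 ratio of the 29 genes was -0.18. The middle 90% of all genes lay between -0.90 and 0.75 (5th and 95th percentiles), so most of the 29 genes lay well inside the range of other genes. More than 1.5-fold lower in the inhibitor experiment were 3 of them, and 1 was more than 1.5-fold higher, against 11.8% and 9.82% of all genes. These shares describe averages and were not tested.

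BTG2 stood furthest apart, with a scaled log2 ratio of -2.44, or a 5.44-fold higher average in the knockdown experiment, at the 0.158 percentile of all genes. APAF1 followed at -0.90 (1.86-fold, 5.07 percentile) and PLK2 at -0.87 (1.83-fold, 5.37 percentile). In the other direction, MDM4 had a scaled log2 ratio of 0.73, a 1.66-fold higher average in the inhibitor experiment, at the 94.5 percentile. PIDD1 had 0.58, just under 1.5-fold. CHEK2, XPC, FDXR, ATM, CHEK1 and PLK3 lay between -0.08 and 0.10. Among related genes, GADD45A had a scaled log2 ratio of -0.45 and GADD45B one of 0.40, and MDM2 had -0.26 against the 0.73 of MDM4. The ratios had the same sign for BTG1 (-0.31) and BTG2, for CCNG1 (-0.40) and CCNG2 (-0.23), and for PLK2 and PLK3 (-0.08). Of the 9 arrest and antiproliferative genes, 8 could be compared, and 7 of these had a lower average in the inhibitor experiment, GADD45B being the exception. Of all 29 genes 72.4% were lower, and of all protein-coding genes 50%, a share that the scaling fixes.

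For comparison, 43 other genes of the pathway were examined. In both experiments 41 of them reached a base mean of 10 (95.3%), against 61.8% of all protein-coding rows. TP63 and SFN were the exceptions. The median percentile per kb of the 43 genes was 52.0 in the knockdown experiment and 50.5 in the inhibitor experiment. The highest of the 43 per kb was PCNA, the sliding clamp of DNA replication and repair, at 11465 and 11593 per kb. The lowest was TP63, a transcription factor of epithelial cells, with base means of 0.265 and 0.367. Of the 41 genes, 27 had a lower and 14 a higher average in the inhibitor experiment, with a median scaled log2 ratio of -0.29. Over all genes 50% were lower, as fixed by the scaling. CDKN1A, which encodes the cell cycle inhibitor p21, had base means of 1151 and 221 and a scaled log2 ratio of -2.31, close to that of BTG2. SESN2 followed with -1.53, from base means of 235 and 78.0. PMAIP1, which encodes the BH3-only protein NOXA, had -1.13. BAX, BBC3 and RPS27L of the same list went the other way, with 0.36, 0.37 and 0.29. They are among the 14 genes with a higher average in the inhibitor experiment. More than 1.5-fold lower in the inhibitor experiment were 7 of the 41 genes, and 1 was more than 1.5-fold higher, H2AX, the histone variant phosphorylated at DNA breaks, with 0.74. Of all genes, 11.8% were more than 1.5-fold lower and 9.82% more than 1.5-fold higher.

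The sequence upstream of the genes was also examined. Many of the genes are known as direct p53 targets, a status that can rest on p53 elements in or near a gene, so this feature is not independent of their choice. A promoter of 300 bases, from 250 before to 50 after the RefSeq start on GRCh38.p14, was found for 32 of the 35 genes. The p53 response element consists of decamers that follow the p53 decamer consensus, and an exact match to 1 decamer was sought. The consensus, though not each single match, reads the same on both strands. It occurred in 3 of the 32 promoters (9.38%) and in 881 of 14906 promoters of protein-coding genes (5.91%). Pairs of exact decamers with a spacer of at most 13 bases occurred in 0 of the 32 promoters and in 3 of the 14906. The 3 matches are shown because they are the only exact decamers in these promoters, each on the strand of its gene with 5 bases on either side and the decamer in capitals.
AEN: gagccGGGCTTGCCCgggca
FDXR: ggagcGGGCTTGCCCtgcgg
PLK2: ggacaAGACTTGCTTcccgg

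The AEN sequence lies at chr15:88621301-88621320 on the plus strand, where the decamer begins at position -34 from the start. The FDXR sequence lies at chr17:74872991-74873010 on the minus strand, at position -11, and its decamer has the same letters as that of AEN. The PLK2 sequence lies at chr5:58460204-58460223 on the minus strand, at position -132. The genes with these matches were not alike in level. Per kb, AEN stood at the 69.3 and 72.9 percentiles, FDXR at 50.4 and 52.1 and PLK2 at 5.91 and 3.05. A match is a string of letters and no measurement of binding, and p53 elements outside these windows were not sought.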

How the data were processed

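RNA of NB4 cells was sequenced by the authors from TruSeq libraries. Per the labels, the submitters' processing notes name bcl2fastq, FastQC 0.11.5, STAR 2.7, RSEM and DESeq2 with hg38. The signal deposited for each gene is a base mean, for which the authors divided counts by DESeq2 size factors and averaged all libraries of an experiment. The depth of each library is unknown from these averages, so no interval was computed. The tables also hold log2 fold changes, standard errors, Wald statistics and p-values of the study's own comparisons, which were not used. The planned edgeR test needs counts per library and was not run.

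Gene models were taken from GENCODE release 44 (GRCh38), matched by stable identifier for 19887 of the 19975 protein-coding rows, and promoters from RefSeq (GRCh38.p14). H2AX is listed under an older symbol and was matched by identifier. Level per kb used the canonical transcript length, ratios were scaled by their median over protein-coding genes that reached a base mean of 10 in both tables, and shared reads were counted as 50-base stretches. The ratio step was tested on simulated data, and the outcome of that test is not given here. Computations used Python 3.11.15, numpy 2.4.6 and pandas 2.3.3. All 35 genes were named, and of the other pathway genes CDKN1A, the highest and the lowest were named by rule. Some items are not reported here. SESN2, PMAIP1, BAX, BBC3, RPS27L, H2AX and SFN were named after their values were seen. The genes and lists were chosen with earlier results of these data known.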

Additional observations from a re-analysis of the deposited data

How the results depend on the processing

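Ranking the 35 genes among all protein-coding genes, silent ones included, raised their median percentile per kb to 59.1 in the knockdown experiment and 59.5 in the inhibitor experiment. With only the 29 genes that reached 10 in both, an alternative chosen after seeing the data, the medians were 42.8 and 43.4. With coding length or union exon length in place of the canonical transcript, both medians moved by no more than 10 percentile points, while 31 of 70 and 7 of 70 single values moved further. Coding length put 5 genes on the other side of the midpoint in the knockdown experiment and 3 in the inhibitor experiment, and union exon length 3 in each. A base mean of at least 50 or 100 left 26 genes (74.3%), against 54.6% and 51.3% of all protein-coding rows. The scaled log2 ratio of XPC changed sign to -0.051 when scaled by the sum of base means and to -0.027 without scaling. All other ratios of the 29 genes kept their sign under each of the 3 scalings tried. No paired analysis was possible because the values are averages over libraries, and leaving out a replicate, DESeq2 and the filter on low counts could not be run for the same reason. Low counts limit the values of SPATA18, EDA2R, GDF15, GADD45G, TP53I3 and PHLDA3 most.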
